A study of Gallus gallus with 12 samples.

Results

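The proteasome is the protease that degrades ubiquitin-tagged proteins in the cytosol and the nucleus. Its barrel-shaped core particle is built of rings of alpha subunits, which form the gate, around rings of beta subunits, some of which cut the substrate. A regulatory particle sits on the gate: ATPases in its base unfold the substrate, and its lid removes the ubiquitin. Other caps (activators), an inhibitor and assembly chaperones act on the same core, and in mammals the transcription factor NFE2L1 drives the genes of most subunits together when proteolysis runs short.

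The genes were chosen by name. Among the 18332 genes listed in each sample, 38 had a symbol that starts with PSM, one of the letters A to G and a number, and 37 of them encode parts of the proteasome or proteins that act on it. They were 13 core subunits (7 of the alpha ring and 6 of the beta ring), 15 regulatory subunits (5 ATPases and 3 other subunits of the base, and 7 lid subunits), 2 activators, 1 inhibitor, 4 chaperones of the core and 2 chaperones of the base. The 38th, PSMC3IP, only shares the name: its protein is known in mammals as a partner of recombinases in homologous recombination. Another 11 symbols of the family, among them the catalytic subunit PSMB6, beta subunits PSMB8 to PSMB11 and activators PSME1 and PSME2, were not matched. Of these, PSMD9 is listed under another symbol and stands outside the 38 genes, and the others are not analysed here. The members are listed at 2.58 to 144.6 FPKM (mapped fragments per kilobase of transcript, set against the library's total) in single samples, and all 38 passed the limit of 0.1 FPKM on mean expression in every comparison.

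RNA came from female dwarf Xinghua chickens, 8 weeks old by the labels, fed a high-fat diet (HFD) or a normal diet (ND). It came from 2 tissues, abdominal fat and liver, with 3 samples in each of the 4 groups. The study's methods give the labelled age for the start of the diets, with slaughter some weeks later. The birds were therefore older at sampling than the labels say. By the study's methods both tissues were taken from the same birds, so the 12 samples come from 6 birds. All birds, controls included, were of the dwarf type, which carries a mutation in the growth hormone receptor gene, and the labels name no drug or deletion. The birds were picked for sequencing at the high end (HFD) and at the low end (ND) of abdominal fat rate, so diet and selection cannot be told apart. No source ties the replicate numbers of fat to those of liver, so the tissue and interaction fits treat the samples as independent, and p-values measure the spread between these samples only. With the number as a replicate block, the members called between the tissues numbered 27 lower and 1 higher, as without it.

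The tissue labels matched their markers. The summed level of 14 hepatocyte genes was 122631 to 143728 FPKM in liver and 687 to 6169 FPKM in abdominal fat, and that of 9 adipocyte genes was 15166 to 19014 FPKM in fat and 360.3 to 486.5 FPKM in liver. Some fat samples stood apart. HFD replicate 1 held 504.1 FPKM of 7 skeletal muscle genes against 17.1 to 61.7 FPKM in the other fat samples. ND replicate 2 held 2887 FPKM of ALB (serum albumin, made by hepatocytes) against 0.86 to 70.0 FPKM in the other fat samples, and ND replicate 1 held 6614 FPKM of 9 blood and immune genes against 2696 to 3820 FPKM. Most of that sum was IGLL1, an immunoglobulin light chain gene (3389 FPKM), and CD74 (3003 FPKM), while the haemoglobin genes HBAD and HBG2 were lowest there of all fat samples (32.0 and 79.8 FPKM). The summed FPKM of all genes was 459367 to 499661 in fat and 564751 to 618324 in liver, and the 10 most expressed genes took 9.3% to 9.95% of it in fat and 25.6% to 30.1% in liver. The depth of the libraries is unknown, since the files hold no counts. In bulk tissue, fewer cells of a type and less RNA per cell cannot be told apart.

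The order of the subunits was alike in both tissues, and 3 beta subunits had the highest means, in fat with PSMA1 close behind. PSMB4, a beta subunit with no active site, had a mean of 129.8 ± 14.5 FPKM in fat and 121 ± 9.73 FPKM in liver (SD, n = 6). PSMB5, which carries the chymotrypsin-like activity, had 117 ± 11.9 and 126 ± 13.3 FPKM, and PSMB7, which carries the trypsin-like activity, had 116 ± 13.4 and 116 ± 13.0 FPKM (SD, n = 6). The ranges of these 3 genes overlapped within each tissue. In fat they overlapped that of PSMA1 as well, which had 115 ± 11.5 FPKM there (SD, n = 6). Values of single samples are given below in the order of replicates 1, 2 and 3. At the other end, PSMG1, a chaperone of the core, had 10.6 ± 1.28 FPKM in fat and 5.53 ± 0.18 FPKM in liver (SD, n = 6). Across the 28 structural subunits (core and regulatory), the log2 mean levels in fat and liver had a Pearson r of 0.867 and a Spearman rho of 0.8402, given as a description across genes that share the same libraries. The gene that changed its place most among the core subunits was PSMA1, an alpha subunit, with rank 4 of the 37 proteasome genes in fat and rank 17 in liver. In the plot of all samples, the spread within a group was small beside the range between genes: the median coefficient of variation over the 38 genes was 6.66% in HFD fat, 9.88% in ND fat, and in liver it was 7.96% with HFD and 11.2% with ND.

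**Figure D1:**
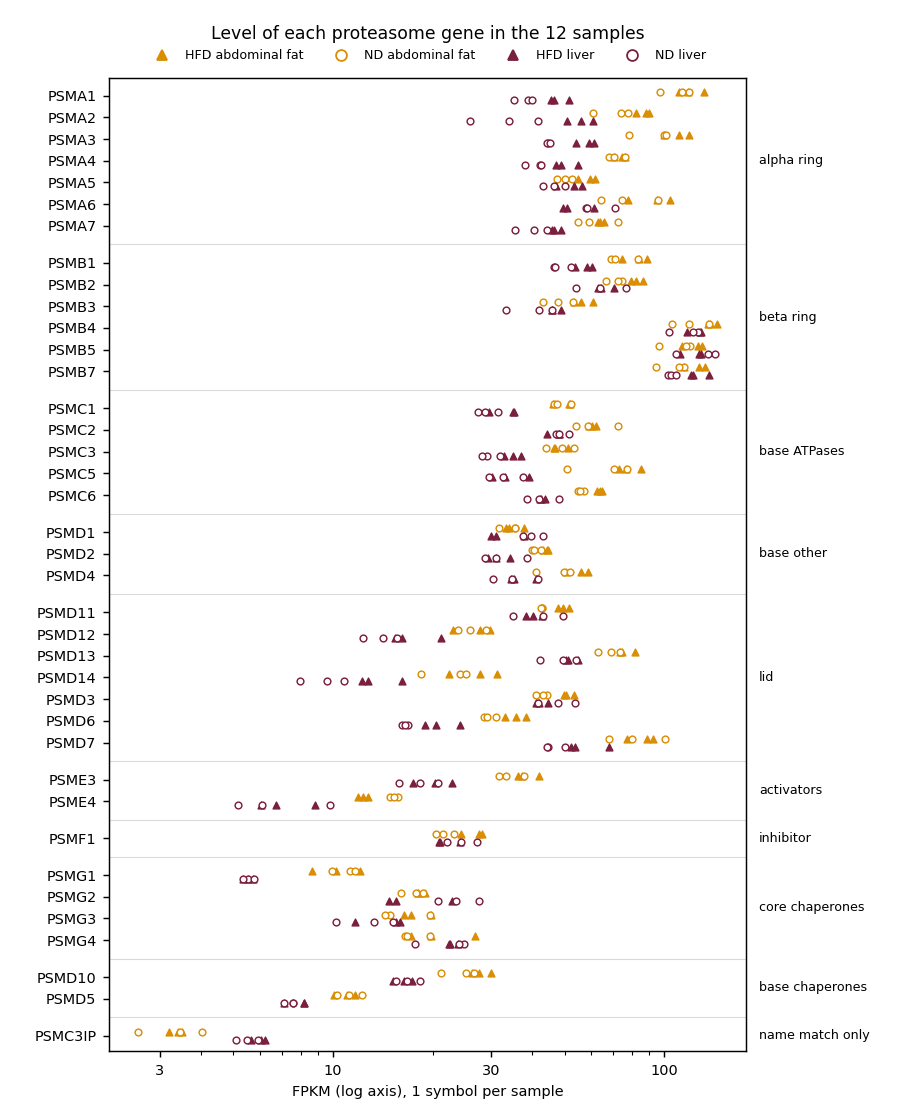
FPKM (log axis) of the 38 matched genes in each of the 12 samples, 1 symbol per sample, with fat in orange, liver in dark red, HFD as filled triangles and ND as open circles, grouped by role. PSMB4, PSMB5 and PSMB7 lie near 100 FPKM in both tissues, whereas the fat and liver samples of PSMA1 are far apart.

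Within each sample, the alpha ring and the beta ring were closer to each other in fat than in liver. The median level of the 7 alpha subunits was 90.0, 77.6 and 88.2 FPKM in HFD fat and 64.6, 73.9 and 76.0 FPKM in ND fat. In liver it was 49.4, 48.8 and 56.6 FPKM with HFD and 42.2, 40.4 and 44.3 FPKM with ND. On these deposited values every liver sample was below every fat sample. The median of the 6 beta subunits was 81.9 to 109.4 FPKM in fat and 78.3 to 99.3 FPKM in liver, and the tissues overlapped. The ratio of the alpha median to the beta median, which multiplying all values of a sample by a factor cannot change, was 0.782 to 0.837 in the 6 fat samples and 0.446 to 0.570 in the 6 liver samples. Without PSMA1 the ratio was 0.760 to 0.776 in fat and 0.468 to 0.593 in liver, and without the 4 core subunits that overlap a coding gene (PSMA1, PSMA6, PSMA7 and PSMB7) it was 0.919 to 0.968 and 0.539 to 0.832, so the tissues stayed apart. For single subunits, the ratio of PSMA1 to PSMB5 was 0.876 to 1.04 in fat and 0.248 to 0.416 in liver. The highest core subunit had 2.43 to 2.60 times the level of the lowest one in fat samples and 2.66 to 5.48 times in liver samples, and the coefficient of variation over the 13 core subunits was 27.6% to 31.2% in fat and 43.9% to 56.4% in liver. These ratios are descriptions, with no test.

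**Figure D2:**
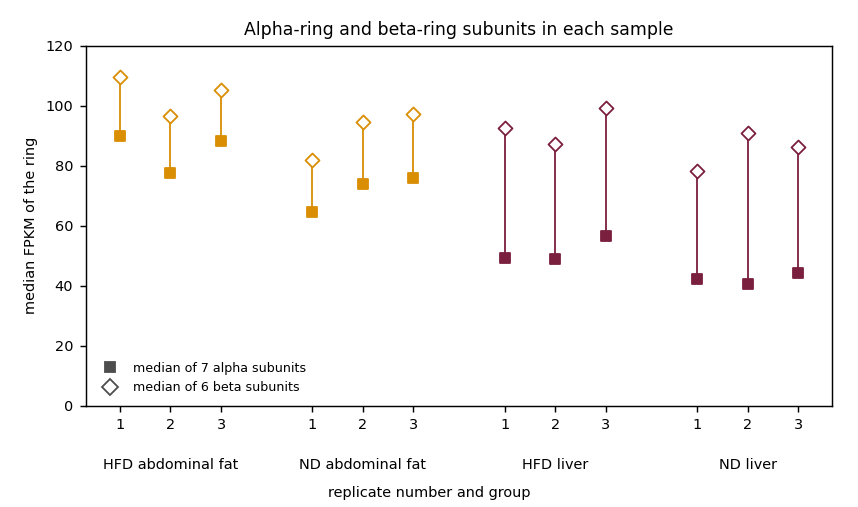
Median FPKM of the 7 alpha subunits (filled squares) and the 6 beta subunits (open diamonds) in each sample, joined by a line, with replicate numbers and groups on the x axis. The beta medians of fat (81.9 to 109.4 FPKM) and liver (78.3 to 99.3 FPKM) overlap, while all alpha medians of liver (40.4 to 56.6 FPKM) lie under those of fat (64.6 to 90.0 FPKM).

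Liver was then compared with abdominal fat across all genes with limma on log2(FPKM + 1), a scale that understates changes of low genes, where a gene was called if its Benjamini-Hochberg adjusted p did not exceed 0.05. On the deposited values, 27 of the 38 genes were lower in liver, 1 was higher and 10 were not called. Of all 15442 genes tested, 62.4% were called lower and 16.4% higher, so a lower value in liver was the more frequent call over all genes. The blood and immune sum was also lower in liver, at 885.6 to 1638 FPKM. Most of that came through CD74, with 364.2 to 831.2 FPKM in liver against 2265 to 3003 FPKM in fat. PTPRC was lower too, with a mean of 6.1 FPKM in liver and 14.5 FPKM in fat. The T cell genes CD3E and CD3D had higher means in liver (13.8 and 19.1 FPKM) than in fat (9.25 and 15.8 FPKM). All other genes of that list had lower means in liver. The part of blood and immune RNA in the result was not tested. The median log2 fold change of the members was -0.51, beside -0.52 over all genes tested and -0.67 over the 12537 genes that reached a mean of 1 FPKM. Only 6 of the 38 members had a log2 fold change above 0, against 24.9% of all genes. All liver samples lay under all fat samples for 20 members and above them for 1, where the shares over all genes were 50.3% and 11.4%. By role, 6 of 7 alpha subunits, 3 of 6 beta subunits, 5 of 5 ATPases, 2 of 3 other base subunits, 5 of 7 lid subunits, 2 of 2 activators and 4 of 6 chaperones were lower, and the inhibitor was not called. The median log2 fold change was -0.67 for the alpha ring, -0.16 for the beta ring, -0.57 for the ATPases, -0.40 for the other base subunits, -0.69 for the lid, -0.89 for the activators and -0.40 for the chaperones.

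**Figure D3:**
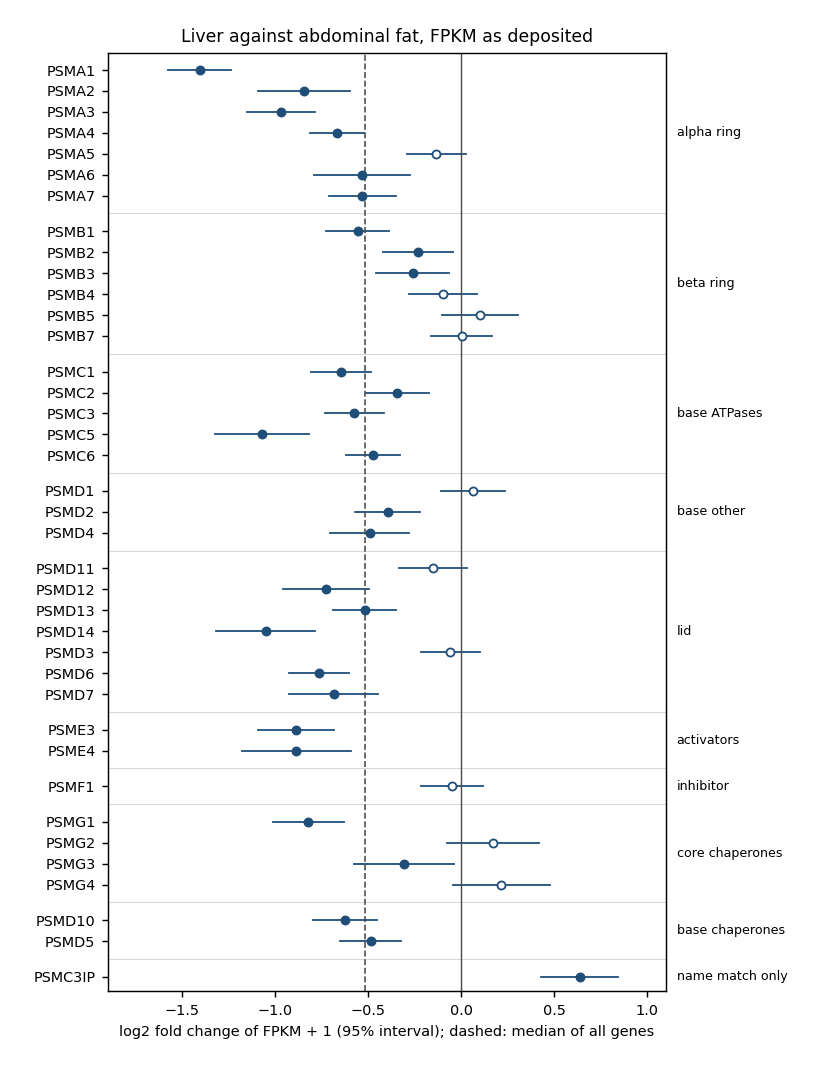
Log2 fold change of FPKM + 1, liver against abdominal fat (x axis), with its 95% interval for each of the 38 genes, on the deposited values; filled points were called (adjusted p not above 0.05) and the dashed line is the median of all genes (-0.52). PSMA1, PSMC5 and PSMD14 lie furthest to the left, and PSMB4, PSMB5 and PSMB7 lie near 0.

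How far these genes were lower depended on the scale on which the tissues were set equal. With each sample scaled to the same sum of FPKM, 34 members were called lower and 1 higher. Of all 15442 genes, 10790 were then called lower and 2024 higher. With quantile normalization, 13 members were lower and 10 were higher, beside 5673 and 5376 of all genes. With samples shifted to the same median over genes that reached 1 FPKM, 4 members were lower and 19 were higher. All genes then gave 4565 lower and 7189 higher. The median of all genes moved with the scaling, from -0.52 on the deposited values to -0.83, -0.01 and 0.22. Under all 4 scalings, 4 members were called lower in liver (PSMA1, PSMA3, PSMC5 and PSMD14) and 1, PSMC3IP, was called higher. How many of all genes were called under all 4 scalings was not counted, so these members have no background share. With the same median, PSMA3, PSMC5 and PSMD14 had adjusted p of 0.0372, 0.0247 and 0.0302 (limma), near the threshold. The beta ring had a median log2 fold change above that of the alpha ring under each of the 4 scalings: -0.16 against -0.67 on the deposited values, -0.44 against -0.95 with the same sum, 0.01 against -0.35 with quantile normalization and 0.57 against 0.07 with the same median. The same sum and the same median move all genes of a sample nearly alike, so only quantile normalization could have changed this order.

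**Figure D4:**
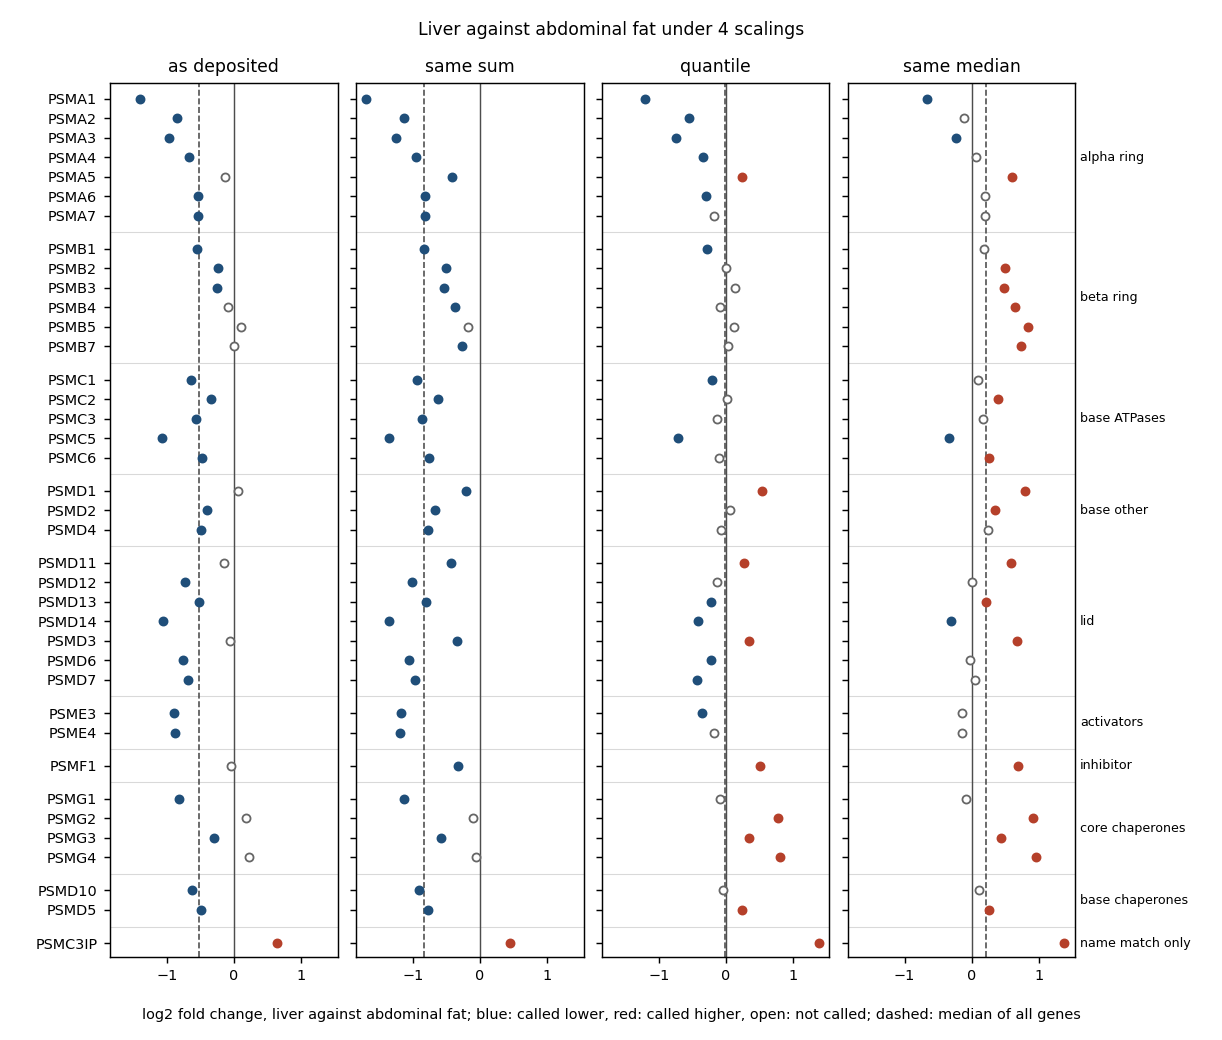
Log2 fold change, liver against abdominal fat (x axis), of the 38 genes on the deposited values and under 3 other scalings (columns), with genes called lower in blue, called higher in red, not called as open points, and the median of all genes dashed. PSMA1, PSMA3, PSMC5 and PSMD14 are blue in all 4 columns, while the number of red points goes from 1 to 19.

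In the alpha ring, PSMA1 showed the largest difference. It had 132, 118 and 111 FPKM in HFD abdominal fat, 96.8, 118 and 113 FPKM in ND abdominal fat, 45.5, 46.3 and 51.6 FPKM in HFD liver, and 38.7, 35.3 and 39.8 FPKM in the ND livers. All liver samples lay under all fat samples, with a log2 fold change of -1.41 (standard error 0.08, adjusted p = 1.5e-08, limma), and from -1.69 to -0.67 under the other scalings. In the RefSeq table (GRCg7b), PSMA1 overlaps PDE3B, a phosphodiesterase gene, whose level went the other way, with 5.29 to 10.4 FPKM in fat and 11.6 to 19.6 FPKM in liver. PSMA3, also an alpha subunit, had 119, 100.1 and 111 FPKM in HFD abdominal fat, 78.1, 100.1 and 101 FPKM in ND abdominal fat, 59.1, 54.1 and 61.5 FPKM in HFD liver, and 44.6, 44.4 and 45.2 FPKM in the ND livers. Its groups did not overlap between tissues either (-0.97 on the log2 scale, standard error 0.08, adjusted p = 6.5e-07, limma). PSMA2, PSMA4, PSMA6 and PSMA7 were called lower on the deposited values, with log2 fold changes of -0.84, -0.67, -0.54 and -0.53, and were not called with the same median. PSMA5 was the alpha subunit that was not called, with 47.4 to 61.7 FPKM (median 53.7) in fat and 43.0 to 56.6 FPKM (median 48.6) in liver (log2 fold change -0.13, adjusted p = 0.108, limma). It was lower with the same sum and higher under the centred scalings, that is, quantile normalization and the same median.

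The catalytic beta subunits had close means in both tissues on the deposited values, though both were called higher in liver with the same median and PSMB7 was called lower with the same sum. PSMB5 had 130.3, 114 and 127 FPKM in HFD abdominal fat, 96.5, 119.8 and 117 FPKM in ND abdominal fat, 127, 111 and 129 FPKM in HFD liver, and 109, 142 and 136 FPKM in the ND livers. The tissues overlapped, and the log2 fold change was 0.10 (95% interval -0.11 to 0.31, adjusted p = 0.339, limma). PSMB7 had 133, 115 and 128 FPKM in HFD abdominal fat, 94.6, 114 and 111 FPKM in ND abdominal fat, 121, 122 and 137 FPKM in HFD liver, and 102, 105 and 109 FPKM in the ND livers. Its log2 fold change was 0.00 (95% interval -0.16 to 0.17, adjusted p = 0.968, limma), and its sign turned when single samples were left out. Set against the core median of the same sample, PSMB5 stood at 141.6% to 160.6% in fat and 206.8% to 292.8% in liver, and PSMB7 at 138.9% to 153.3% and 209.6% to 234.5%. The core median itself was lower in liver, at 44.55 to 61.13 FPKM against 68.16 to 90.04 FPKM in fat. These shares are therefore not separate from the ratio of the rings given above. PSMB7 overlaps NEK6, a kinase gene with 33.3 to 44.1 FPKM in fat and 8.7 to 10.8 FPKM in liver, and the part of that overlap in the values was not tested. Among the beta subunits without an active site, PSMB1, PSMB2 and PSMB3 were called lower (log2 fold change -0.56, -0.23 and -0.26) and PSMB4 was not (-0.10, adjusted p = 0.304, limma). With the same median, PSMB2, PSMB3 and PSMB4 were called higher instead.

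In the regulatory particle, PSMC5 and PSMD14 stood out. PSMD14 overlaps a coding gene in the RefSeq table, whose level is not given here. PSMC5, an ATPase of the base, had 73.0, 76.9 and 85.4 FPKM in HFD abdominal fat, 50.7, 70.6 and 77.3 FPKM in ND abdominal fat, 30.1, 32.9 and 39.0 FPKM in HFD liver, and 29.6, 32.5 and 37.3 FPKM in the ND livers. Every liver sample was under every fat sample, with a log2 fold change of -1.07 (standard error 0.11, adjusted p = 4.5e-06, limma). The other ATPases had log2 fold changes of -0.65 (PSMC1), -0.34 (PSMC2), -0.57 (PSMC3) and -0.47 (PSMC6), all called lower on the deposited values, but PSMC2 and PSMC6 were called higher with the same median. PSMD14, the lid protease that takes ubiquitin chains off the substrate, had 27.7, 22.4 and 31.3 FPKM in HFD abdominal fat, 18.5, 24.2 and 25.1 FPKM in ND abdominal fat, 12.8, 12.3 and 16.2 FPKM in HFD liver, and 9.61, 7.94 and 10.8 FPKM in the ND livers. It was the structural subunit with the lowest mean in liver, at 11.6 ± 2.85 FPKM against 24.9 ± 4.41 FPKM in fat (SD, n = 6), a log2 fold change of -1.05 (standard error 0.12, adjusted p = 8.1e-06, limma). PSMD6, PSMD7, PSMD12 and PSMD13, all of the lid, were also called lower (log2 fold change -0.77, -0.69, -0.73 and -0.52), of which PSMD13 was called higher with the same median. In the base, the scaffold subunit PSMD2 (-0.40) and the ubiquitin receptor PSMD4 (-0.49) were called lower on the deposited values, though PSMD2 was called higher with the same median.

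A second scaffold, PSMD1, and the lid subunits PSMD3 and PSMD11 also had close means in both tissues on the deposited values. PSMD1 had 31.6 to 37.6 FPKM (median 34.8) in fat and 29.9 to 43.0 FPKM (median 37.6) in liver, PSMD3 had 41.0 to 53.4 FPKM (median 47.0) and 41.0 to 53.9 FPKM (median 43.2), and PSMD11 had 42.4 to 51.7 FPKM (median 45.3) and 34.9 to 49.4 FPKM (median 41.5). The tissues overlapped for each of them, with log2 fold changes of 0.06, -0.06 and -0.15 that were not called. These 3 genes were called lower with the same sum and higher under both centred scalings.

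The activators were lower in liver on the deposited values. PSME3, a ring-shaped cap of the nuclear proteasome that needs no ubiquitin, had 36.2, 37.2 and 41.9 FPKM in HFD abdominal fat, 31.8, 33.3 and 37.7 FPKM in ND abdominal fat, 17.5, 20.3 and 22.8 FPKM in HFD liver, and 15.8, 18.4 and 20.8 FPKM in the ND livers. PSME4, a single-chain cap known in mammals from spermatogenesis and DNA repair, had 11.9, 12.3 and 12.7 FPKM in HFD abdominal fat, 15.7, 14.9 and 15.3 FPKM in ND abdominal fat, 6.08, 8.82 and 6.72 FPKM in HFD liver, and 9.79, 5.17 and 6.12 FPKM in the ND livers. For both genes all liver samples lay under all fat samples. The log2 fold change was -0.89 for PSME3 (standard error 0.09, adjusted p = 3.5e-06) and -0.89 for PSME4 (standard error 0.13, adjusted p = 7.9e-05, limma). With the same median they were not called, at -0.15 each, and PSME4 was not called with quantile normalization. Relative to the core median of the sample, PSME3 stood at 40.2% to 48.5% in fat and 32.6% to 44.7% in liver, and PSME4 at 13.2% to 23.0% and 10.3% to 21.98%, so both overlapped between tissues on that scale.

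The inhibitor PSMF1, which blocks the core in vitro, had 28.1, 27.6 and 24.4 FPKM in HFD abdominal fat, 21.4, 23.2 and 20.4 FPKM in ND abdominal fat, 21.1, 24.1 and 20.9 FPKM in HFD liver, and 22.2, 27.1 and 24.3 FPKM in the ND livers. The tissues overlapped, and the log2 fold change was -0.05 (95% interval -0.22 to 0.12, adjusted p = 0.567, limma). It was called lower with the same sum and higher under both centred scalings.

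The chaperones of the core did not move as 1 group, although PSMG1 works as a dimer with PSMG2, and PSMG3 with PSMG4. PSMG1 had 12.04, 8.63 and 10.2 FPKM in HFD abdominal fat, 9.91, 11.2 and 11.7 FPKM in ND abdominal fat, 5.33, 5.52 and 5.72 FPKM in HFD liver, and 5.52, 5.76 and 5.34 FPKM in the ND livers, with no overlap between tissues and a log2 fold change of -0.82 (standard error 0.09, adjusted p = 3.7e-06, limma) that was not called under either centred scaling. PSMG2 had 19.0, 18.1 and 18.1 FPKM in HFD abdominal fat, 16.1, 18.8 and 17.8 FPKM in ND abdominal fat, 14.7, 15.4 and 22.8 FPKM in HFD liver, and 23.5, 27.6 and 20.7 FPKM in the ND livers, and was not called (0.17, adjusted p = 0.183, limma), but was called higher under both centred scalings. Relative to the core median of the sample, PSMG2 stood at 20.5% to 25.1% in fat and 27.5% to 55.0% in liver, while PSMG1 stood at 10.8% to 15.0% and 9.36% to 12.4%. PSMG3 had 16.4, 17.2 and 19.8 FPKM in HFD abdominal fat, 14.8, 14.3 and 19.6 FPKM in ND abdominal fat, 11.7, 16.0 and 15.5 FPKM in HFD liver, and 10.2, 13.3 and 15.2 FPKM in the ND livers. Its tissues overlapped, with a log2 fold change of -0.31 (adjusted p = 0.0385, limma) that turned to a call as higher under both centred scalings. PSMG4 had 26.9, 17.2 and 19.8 FPKM in HFD abdominal fat, 16.5, 16.8 and 19.6 FPKM in ND abdominal fat, 22.6, 23.8 and 22.3 FPKM in HFD liver, and 17.7, 24.9 and 24.0 FPKM in the ND livers, and was not called either (0.22, adjusted p = 0.117, limma), but was called higher under both centred scalings. Like PSMG2 it lay higher in liver relative to the core median, which was itself lower in liver, at 36.5% to 51.7% against 21.5% to 29.9% in fat. In the RefSeq table PSMG3 overlaps TMEM184A, with 0.52 to 0.67 FPKM in fat and 6.20 to 8.38 FPKM in liver. PSMG4 overlaps SLC22A23, with 6.26 to 14.9 FPKM in fat and 11.6 to 16.7 FPKM in liver. The part of these overlaps in the values was not tested.

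Both chaperones of the base were lower in liver on the deposited values. PSMD5 had 11.7, 10.1 and 11.1 FPKM in HFD abdominal fat, 12.2, 10.3 and 11.2 FPKM in ND abdominal fat, 7.09, 8.17 and 8.17 FPKM in HFD liver, and 7.59, 7.57 and 7.10 FPKM in the ND livers, a log2 fold change of -0.49 (adjusted p = 9.0e-05, limma), which was a call as higher under both centred scalings. PSMD10 (gankyrin), which also binds the retinoblastoma protein in mammals, had 29.9, 26.3 and 27.7 FPKM in HFD abdominal fat, 21.2, 25.1 and 26.7 FPKM in ND abdominal fat, 17.4, 15.2 and 16.4 FPKM in HFD liver, and 18.3, 16.7 and 15.5 FPKM in the ND livers. No liver sample of either gene reached a fat sample, and the log2 fold change of PSMD10 was -0.62 (adjusted p = 1.8e-05, limma), which was not called under the centred scalings. Apart from the proteasome genes, PSMC3IP had 3.49, 3.20 and 3.40 FPKM in HFD abdominal fat, 3.44, 2.58 and 4.02 FPKM in ND abdominal fat, 6.07, 5.66 and 6.23 FPKM in HFD liver, and 5.95, 5.08 and 5.51 FPKM in the ND livers. It was higher in every liver sample, with a log2 fold change of 0.64 (standard error 0.09, adjusted p = 6.3e-05, limma). It overlaps MLX in the RefSeq table, whose level was 24.5 to 30.1 FPKM in fat and 16.4 to 24.9 FPKM in liver.

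The study set out to compare the diets. In abdominal fat, limma called none of the 38 (0 higher, 0 lower), with 0.765 as the lowest adjusted p. Of the 15412 genes tested, 0% were called higher and 0.00649% lower. The values nevertheless leaned to HFD: 33 of 38 members had a log2 fold change above 0, against 44.4% of all genes, with a median of 0.16 beside -0.03 for all genes. All 13 core subunits, 7 of 7 lid subunits, 3 of 3 other base subunits and 3 of 5 ATPases were on that side. At an unadjusted p under 0.05, 8 members were higher and 1 was lower, where all genes gave 2.91% and 3.4%. The count of 8 was 1 without HFD replicate 3 or ND replicate 1, beside 325 of 15395 and 373 of 15361 genes. It was 2 without HFD replicate 1 (307 of 15384 genes) and 3 without HFD replicate 2 (441 of 15408 genes). Without ND replicate 2 or ND replicate 3 it was 5, beside 552 of 15351 and 576 of 15418 genes. With the same sum it was 2 and with the replicate block 3, beside 343 and 392 of all 15412 genes. With quantile normalization, sample weights and the same median it was 6, 9 and 10, beside 543, 441 and 733 of all 15412 genes. For 11 members all HFD samples lay above all ND samples and for 1 all lay below, where all genes gave 5.33% and 8.14%. Genes of 1 sample share its library, so these counts do not stand for that many separate observations.

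ND replicate 1, the fat sample with the high IGLL1, was the lowest of its group in 32 of the 38 genes. Without it, 30 of 38 log2 fold changes were above 0, with a median of 0.09, beside 47.4% and -0.012 for all genes. Then 11 members still did not overlap on the high side, against 9.42% of all genes. Without ND replicate 2, the sample with ALB, 32 were above 0 with a median of 0.20, beside 43.4% and -0.034 for all genes. Then 13 members did not overlap, against 9.95% of all genes. The number not overlapping was 20 without HFD replicate 2 (10.95% of all genes) and 24 without ND replicate 3 (11.7%). HFD replicate 1, with the high muscle sum, was the highest of its group in 23 of the 38 genes. Without it 31 were above 0 with a median of 0.15, beside 42.9% and -0.035 for all genes. The hepatocyte sum also separated the diets in fat, at 687.5 to 1093 FPKM in HFD and 2587 to 6169 FPKM in ND. In every fat sample but ND replicate 2, most of that sum was APOA1, at 575 to 951 FPKM in HFD and 1526 to 2287 FPKM in ND. TF separated the diets too (78.9 to 166.7 and 291.1 to 488.7 FPKM), as did FGA and SERPINC1 at low levels. The other genes of the list did not, among them ALB, with 0.86 to 38.9 FPKM in HFD and 22.4 to 2887 FPKM in ND. The part of immune, liver or muscle RNA in the result was not tested.

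The 3 members with the smallest p in abdominal fat were PSME4, PSMD3 and PSMF1. The activator PSME4, the lowest of the 5 members under 0, had 11.9, 12.3 and 12.7 FPKM in HFD and 15.7, 14.9 and 15.3 FPKM in ND (log2 fold change -0.29, 95% interval -0.50 to -0.09, unadjusted p = 0.013, adjusted p = 0.765, limma). All 3 HFD samples lay under all 3 ND samples. The lid subunit PSMD3 had 49.8, 50.5 and 53.4 FPKM in HFD and 41.0, 44.3 and 43.2 FPKM in ND, with every HFD sample above every ND sample (0.25, 95% interval 0.06 to 0.45, unadjusted p = 0.017, adjusted p = 0.765, limma). The inhibitor PSMF1 likewise did not overlap between the diets (0.28, unadjusted p = 0.0251, adjusted p = 0.765, limma). For the catalytic subunits the 95% intervals were -0.12 to 0.44 (PSMB5) and -0.03 to 0.50 (PSMB7) on the log2 scale.

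**Figure D5:**
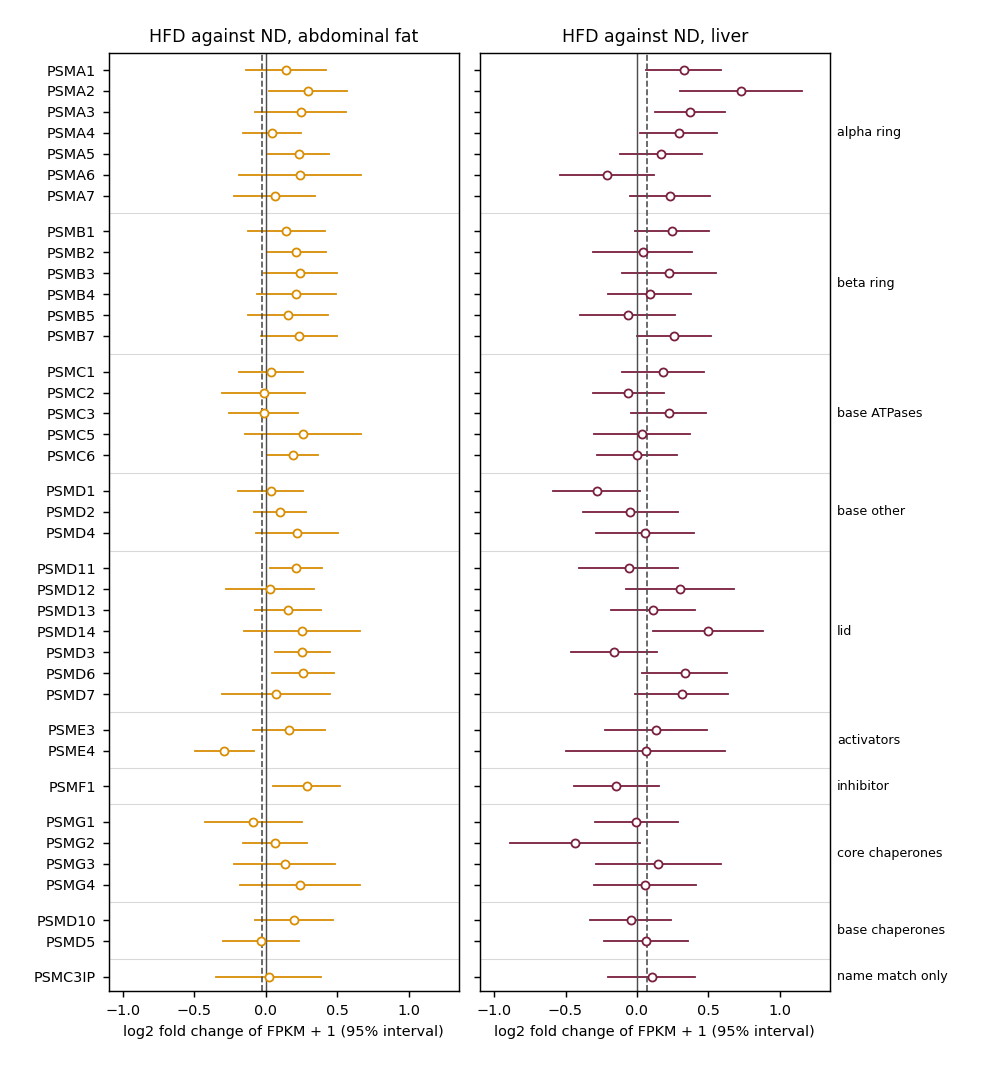
Log2 fold change of FPKM + 1, HFD against ND (x axis), with its 95% interval for each of the 38 genes in abdominal fat (left) and liver (right); the dashed line is the median of all genes (-0.03 and 0.07), and open points mean that no gene was called. In fat 33 of 38 points lie right of 0 with PSME4 on the left, and in liver PSMA2 and PSMD14 lie furthest to the right.

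In liver, limma again called 0 of the 38 genes, with 0% of the 14510 genes tested called higher and 0% lower, and the smallest adjusted p among the members was 0.232. Here 27 of 38 members had a log2 fold change above 0, against 61.2% of all genes, with a median of 0.10 beside 0.07 for all genes, so the set as a whole was close to the background. With samples shifted to the same median, 18 of 38 were above 0 and the median was -0.01, beside 43.9% and -0.04 for all genes. At an unadjusted p under 0.05, 7 members were higher and 0 were lower, where all genes gave 9.93% and 3.94%. These counts were 2 and 2 without HFD replicate 3, beside 937 and 463 of 14469 genes. They were also 2 and 2 with the same median, beside 798 and 1151 of all 14510 genes. The count of 7 was 3 to 5 without any other single sample, beside 870 to 2286 of 14473 to 14534 genes. With the same sum it was 11, beside 1633 of all 14510 genes. For 11 members all HFD samples lay above all ND samples and for 0 below, where all genes gave 14.3% and 5.82%. Without ND replicate 1 these were 14 and 6, where all genes gave 29.9% and 11.7%. Without HFD replicate 3 they were 11 and 3, where all genes gave 19.0% and 9.54%. With all samples, the alpha ring held 5 of the 11, with 6 of 7 log2 fold changes above 0 and a median of 0.29.

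PSMA2, an alpha subunit, gave the largest diet difference in liver. It had 50.8, 56.0 and 61.1 FPKM in HFD and 41.7, 25.9 and 33.9 FPKM in ND, with every HFD sample above every ND sample (log2 fold change 0.73, 95% interval 0.30 to 1.16, unadjusted p = 0.00466, adjusted p = 0.232, limma). PSMA3 had 59.1, 54.1 and 61.5 FPKM in HFD and 44.6, 44.4 and 45.2 FPKM in ND (0.37, unadjusted p = 0.00913, adjusted p = 0.261, limma), again with no overlap. PSMD14, with 12.8, 12.3 and 16.2 FPKM in HFD and 9.61, 7.94 and 10.8 FPKM in ND, was separated in the same way (0.50, unadjusted p = 0.0183, adjusted p = 0.3, limma). PSMA6 was the exception in the alpha ring, with 49.4, 51.0 and 61.3 FPKM in HFD and 58.0, 71.1 and 58.3 FPKM in ND. The catalytic subunit PSMB5 overlapped between the diets (95% interval -0.40 to 0.27), and PSMB7 lay at 0.26 (adjusted p = 0.358, limma). Within samples, the highest core subunit had 2.66 to 2.99 times the level of the lowest one in livers of HFD birds and 3.26 to 5.48 times in those of ND birds. The lowest one was PSMA2 in ND replicates 2 and 3 (5.48 and 4.01 times), so these ratios partly repeat its values above. In ND replicate 1 (3.26 times) it was PSMB3. The ratio of the regulatory median to the core median was in liver 0.612 to 0.648 with HFD and 0.705 to 0.830 with ND, and in fat it was 0.574 to 0.599 in HFD and 0.627 to 0.668 in ND, so the diets did not overlap in either tissue. These ratios were chosen after the values were seen and carry no test.

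An interaction term over all 12 samples tested whether liver and fat differed in their diet difference. Limma called 0 of the 38 members, and 0.00648% of all genes were called with a higher and 0% with a lower diet difference in liver. At an unadjusted p under 0.05, 0 members had a higher and 3 a lower diet difference in liver, where all genes gave 9.21% and 3.39%. Of the members, 18 of 38 had an interaction above 0, against 61.9% of all genes. The direction depended on the scaling, for all genes as for the members. With the same sum, the counts were 3 higher and 2 lower, beside 1831 and 339 of all 15442 genes. Then 23 of 38 members lay above 0 with a median of 0.07, against 68.7% of all genes with a median of 0.19. With the same median, the counts were 0 and 8, beside 586 and 1308 of all genes. There 8 of 38 lay above 0, against 41.0% of all genes. The members' share above 0 was under that of all genes in each of these settings. On the deposited values the 3 lower genes were PSMD3 (-0.41, unadjusted p = 0.0157), PSMF1 (-0.43, unadjusted p = 0.0169) and PSMG2 (-0.50, unadjusted p = 0.048, limma), with adjusted p of 0.34, 0.343 and 0.395. In each, the HFD mean was above the ND mean in fat and under it in liver: PSMD3 had 44.5, 41.0 and 41.9 FPKM in HFD liver and 41.5, 53.9 and 47.9 FPKM in ND liver.

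The genes that act around the proteasome were looked at from a list of 39 symbols, of which 31 were found. In liver against fat, 26 of the 31 were called lower, 0 higher and 5 were not called on the deposited values, beside the 62.4% of all genes. NFE2L1, the transcription factor named above, had 152, 153 and 163 FPKM in HFD abdominal fat, 93.2, 153 and 142 FPKM in ND abdominal fat, 41.2, 44.9 and 40.7 FPKM in HFD liver, and 41.4, 54.2 and 46.4 FPKM in the ND livers. Its liver samples were all under its fat samples, with a log2 fold change of -1.63 (standard error 0.12, adjusted p = 1.7e-07, limma). AKIRIN2, which helps bring proteasomes into the nucleus in human cells, had 48.8 to 71.9 FPKM (median 62.6) in fat and 21.7 to 26.8 FPKM (median 25.5) in liver (log2 fold change -1.28, adjusted p = 2.3e-07, limma). POMP, the maturation factor of the core, had 59.5 to 85.3 FPKM (median 73.2) in fat and 28.4 to 39.4 FPKM (median 36.9) in liver, again without overlap (-0.998, adjusted p = 1.2e-06, limma). These 3 genes were called lower under each of the 4 scalings. The other genes of the 31, and the counts by group that follow, are given on the deposited values only. By group, 5 of 5 other subunits and assembly factors, 4 of 4 deubiquitinases and ligases on the proteasome, 9 of 11 shuttle receptors and segregase genes, 4 of 7 transcription factors and their processing genes, and 4 of 4 ubiquitin and E1 genes were lower. Between the diets, limma called 0 of the 31 in either tissue, with 1 higher and 0 lower at an unadjusted p under 0.05 in fat (2.91% and 3.4% of all genes) and 5 higher and 1 lower in liver (9.93% and 3.94%).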

How the data were processed

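RNA from abdominal fat and liver was sequenced on the BGISEQ-500 platform. The authors deposited FPKM values per gene and sample, with 2 decimals. The submitters' processing notes name HISAT2 (2.0.4), Bowtie2 (2.2.5) and RSEM (1.2.12), without roles. The genome build is not given in the sources used here, nor is strand, so genes that overlap a neighbour are uncertain: 15 of the 38 overlap another gene in the RefSeq table (GRCg7b), 12 of them a coding one. All 38 identifiers carry the same symbol there.

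Groups came from the labels. Genes that reached a mean of 0.1 FPKM were fitted with limma (3.58.1, R 4.3.3) on log2(FPKM + 1), eBayes with trend, two-sided, Benjamini-Hochberg over all genes tested, with calls where the adjusted p did not exceed 0.05. Liver against fat and the interaction used all 12 samples with 4 group means, and the diets were fitted per tissue. Fits were tested on simulated data. FPKM allows no count test and gives no depth, so no counting interval was computed. Alternatives were the pseudocount, filter, scaling, sample weights, replicate block, threshold, other sample sets and each sample left out. Values were given for the catalytic subunits, activators, inhibitor and chaperones, the 4 largest called tissue differences in each direction, and the 3 smallest p per diet comparison and interaction. Other genes were named by role. Members and lists were chosen with earlier results of these data known.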

Additional observations from a re-analysis of the deposited data

How the results depend on the processing

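Between the tissues, scaling moved the calls most. The members called higher in liver were 1 on the deposited values, 10 with quantile normalization, 19 with the same median, and 2 with sample weights or in ND samples alone. Those called lower were 27, against 13 with quantile normalization and 4 with the same median. The calls over all genes under these scalings are given above. With sample weights 2587 of all 15442 genes were called higher, and in ND samples alone 1998 of 15374. Leaving out single samples gave 1 to 2 members higher (2 without HFD fat replicate 1 or ND liver replicate 1). All genes then gave 2406 to 2501 higher, of 15409 to 15481 tested. The median log2 fold change was -0.79 with the same sum, -0.090 with quantile normalization and 0.23 with the same median. It was -0.014 for HFD against ND in liver with the same median and -0.19 for the interaction, beside -0.040 and -0.075 over all genes.

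With the same median, 29 of the 38 log2 fold changes between tissues were above 0, against 6 on the deposited values. The share of all genes above 0 was 59.5% and 24.9% in these settings. Among the genes named by rule for this comparison, signs turned for PSMB5 (-0.18 with the same sum, -0.011 in HFD samples alone), PSMB7 (-0.27 with the same sum, -0.011 in ND samples alone, -0.038 to 0.030 with single samples left out), PSMF1 (0.51 with quantile normalization, 0.69 with the same median, 0.17 in ND samples), PSMG2 (-0.10 with the same sum, -0.079 in HFD samples), PSMG3 (0.34 and 0.43 under the centred scalings), PSMG4 (-0.052 with the same sum), PSMD5 (0.24 and 0.25) and PSMD10 (0.11 with the same median). Beyond scaling, the cause was not tested. Between the diets, PSME4, PSMD3 and PSMF1 in fat and PSMA2, PSMA3 and PSMD14 in liver, and PSMD3, PSMF1 and PSMG2 for the difference between tissues, kept their sign and side of the threshold under every alternative run. That side was not called throughout, and these genes were picked by their small p, so this gives no separate support. Other genes named for the diets were not followed.

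The mean ratio of the alpha to the beta median went from 0.803 to 0.948 in fat and from 0.527 to 0.743 in liver without the subunits that overlap a coding gene, and to 0.768 in fat without PSMA1. These alternatives were chosen after seeing the data, and fewer subunits enter each median.

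Same-numbered fat and liver samples deviated together in 5 of 6 pairs at a correlation over 0.1 (0.072 to 0.242), and all 6 liver samples were closest to their own number, a hint from the data, while no source ties the numbers to birds. HFD and ND samples of 1 number did not (-0.150 to 0.064). With a replicate block the members called stayed at 1 higher and 27 lower between tissues, beside 2565 and 9704 of all 15442 genes. For the diets they stayed at 0, where the smallest adjusted p of the members was 0.784 in fat and 0.312 in liver (limma). With 1 fit of all samples the smallest adjusted p in liver was 0.0688. Unknown depth limits all values.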

Other observations

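Among the 31 genes around the proteasome, all HFD livers lay above all ND livers for 9 and under them for 2. The shares over all genes were 14.3% and 5.82%. A pair of the higher ones and both lower ones are given here, picked after the values were seen. NFE2L2, a stress transcription factor that also acts on proteasome genes in mammals, had 37.7, 40.8 and 26.8 FPKM in HFD and 25.2, 21.8 and 21.6 FPKM in ND (log2 fold change 0.58, unadjusted p = 0.0121, adjusted p = 0.278, limma). UBQLN1, a shuttle receptor that carries ubiquitinated proteins to the proteasome, had 16.9, 18.6 and 27.8 FPKM in HFD and 15.1, 11.1 and 11.1 FPKM in ND (0.70, unadjusted p = 0.013, adjusted p = 0.282, limma). HFD samples lay above all ND samples for NFE2L2 and UBQLN1, and neither was called. The other way went NFYC, listed with NFE2L2 among the transcription factors, and the shuttle receptor UBQLN4. NFYC had 41.95, 46.11 and 48.17 FPKM in HFD and 67.03, 55.45 and 60.36 FPKM in ND. UBQLN4 had 27.32, 29.86 and 28.58 FPKM in HFD and 30.67, 39.35 and 32.0 FPKM in ND, and neither was called.

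PSMD9, a chaperone of the base, is listed under another symbol and was found by its gene identifier, so it stands outside the 38 genes. It had 25.9 to 39.2 FPKM (median 28.8) in fat and 27.7 to 37.5 FPKM (median 33.5) in liver, with a log2 fold change of 0.15 for liver against fat (adjusted p = 0.184, limma) that was not called. In liver its HFD samples (27.7, 30.7 and 32.9 FPKM) lay under its ND samples (34.1, 37.5 and 36.2 FPKM), at a log2 fold change of -0.23 (adjusted p = 0.404, limma).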
